A study of Mus musculus with 8 samples.

Results

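The genes described here encode the cargo machinery of the cilium: intraflagellar transport (IFT) complexes B and A, the kinesin-2 and dynein-2 motors that pull them, the BBSome with its assembly chaperonin, the GTPases Arl6 and Arl13b and the adaptor Tulp3. The rule that chose them uses gene symbols and no measured value, though the choice was made with earlier results of these data known. All 39 of its 39 genes were found among the 55401 genes of the count table. RNA was sequenced from 8 mouse libraries described as airway cells, each taken on day 10 after tamoxifen. The 4 mutant libraries have the genotype Scgb1a1cre; Cdh1F/F, with 2 floxed alleles of Cdh1, the gene of the adhesion protein E-cadherin. The 4 control libraries have the genotype Scgb1a1cre; Cdh1F/+, so they share the Cre driver, the tamoxifen and 1 floxed allele. Scgb1a1 is the gene of the main secretory protein of club cells, so that recombination is directed to those cells, and no label says what share of a library came from them. The series text gives depletion of immune and endothelial cells, selection on EPCAM and a GFP sort, and no label says which GFP fraction a library holds. Ages and sexes are not in the labels, and nothing states in words that each library is a separate animal. Each library's description ends in a number of its own, with no meaning given, and those of control 1 and mutant 4 are consecutive and apart from the rest. The p-values therefore rest on the spread among these 8 libraries, which may be technical.

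Cilia are built and maintained from their tip, and IFT trains carry their building blocks. Complex B trains move outward with kinesin-2, complex A and dynein-2 bring material back to the cell body, and the BBSome carries membrane proteins along with the trains. Most cell types of the lung can form a single primary cilium, which uses the same machinery, while multiciliated airway cells carry many motile cilia that in addition need axonemal dyneins, radial spokes and a dedicated centriole programme. A transcript of an IFT gene in a mixed sample can therefore come from either kind of cilium.

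Total counts ran from 15111663 to 21673654 per library. Cdh1 stood at 406, 410, 401 and 396 CPM in mutant libraries 1 to 4, against 322, 428, 388 and 395 CPM in controls 1 to 4. CPM is a count scaled to a common library total. Because reads were summed over all exons, a deletion of the floxed ones need not lower this value, so Cdh1 does not check the labels and groups are named as labelled. The libraries held several lung cell types: Pecam1, an endothelial gene, averaged 842 ± 57.6 CPM in mutants and 1170 ± 183 CPM in controls, and the epithelial gene Epcam 103 ± 6.79 and 67.1 ± 6.91 CPM (SD, n = 4 each). Controls fell into pairs: along the leading principal component, with 48.8% of the variance, mutants lay between 24.5 and 31.6, controls 1 and 4 at -4.1 and -9.8, and controls 2 and 3 at -46.5 and -53.7, so counts are also given without each pair of controls.

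All 39 genes passed the filter on low counts. In mutant libraries 7 of the 39 rose and 0 fell (edgeR quasi-likelihood test, adjusted p under 0.05). Of all 16964 genes tested, 5.45% were called higher and 2.36% lower. The 7 were the complex B genes Ift74, Ift22, Ift81, Ift88, Ift57 and Traf3ip1, and the motor gene Kif17. Fold changes were modest: 30 of the 39 were positive, where 49.1% of all tested genes were, and their median log2 fold change of 0.19 compared with -0.01 over all tested genes. For 10 genes every mutant library lay above every control, which held for 9.75% of all tested genes in that direction, and for 0 genes did the mutants all lie below, against 7.07%. At an unadjusted p under 0.05, 14 were higher and 1 was lower, where 13.4% and 11.8% of all genes were. DESeq2 called 9 higher and 0 lower, where it called 7.88% and 5.54% of all genes, and limma-voom called 6 and 0, where it called 5.77% and 2.18%. Leaving out 1 library lowered the count called higher to 3 without mutant 1 (3% of all tested genes), 1 without mutant 2 (3.12%), 1 without mutant 4 (3.36%), 4 without control 2 (3.61%) and 2 without control 3 (3.62%). Over all tested genes the count also went down in these fits, to between 515 and 623, against 924 with all libraries.

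In the same libraries the ciliary transcription factor gene Foxj1 was 2.53-fold higher, Epcam 1.53-fold higher and Pecam1 1.39-fold lower, and their part in the result was not tested. In bulk samples a change in the number of cells of a type and a change in RNA per cell cannot be told apart.

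**Figure D1:**
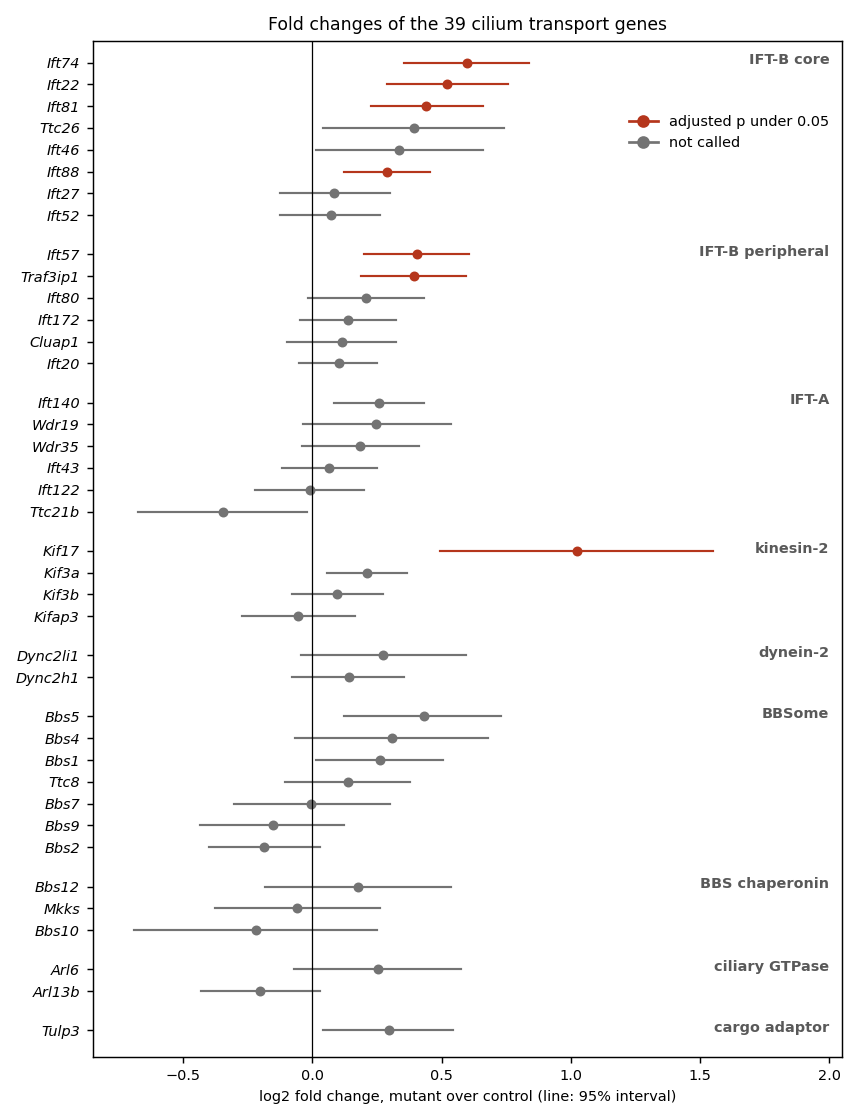
Log2 fold change of each of the 39 genes, mutant over control, with its 95% interval, grouped by complex; red marks an adjusted p under 0.05. The 14 complex B genes all lie right of 0, and 6 of them are red; outside complex B the only red gene is Kif17, with the widest interval.

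Complex B is the cargo carrier of outward transport, and it held 6 of the 7 called genes. All 14 of its members had a positive fold change, from 1.05-fold to 1.52-fold, with a median log2 fold change of 0.31. In its core, 4 of 8 genes rose, and in its peripheral part 2 of 6. Of the 25 genes outside complex B, 1 was called (4%) and 16 were positive. Of all tested genes 5.45% were called higher and 49.1% were positive. The difference between the complexes was not tested.

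Ift74 (ENSMUSG00000028576, GRCm38 chr4:94614491-94693229) and Ift81 (ENSMUSG00000029469, chr5:122550204-122614518) encode partner subunits of the core that together bind tubulin as cargo. Ift74 stood at 23.3, 24.8, 19.1 and 23.6 CPM in mutant libraries 1 to 4, against 14.1, 16.3, 13.5 and 16.1 CPM in controls 1 to 4. Its lowest mutant value, in mutant 3, was above its highest control value. Ift74 rose 1.52-fold (95% interval 1.28 to 1.79), with a log2 fold change of 0.60 ± 0.11 (SE, adjusted p = 0.00937, edgeR). Ift81 stood at 33.7, 40.2, 31.3 and 40.0 CPM in mutants, against 25.5, 28.7, 25.9 and 27.1 CPM in controls. Mutants 2 and 4 were high and mutants 1 and 3 closer to the controls, and the groups did not overlap. Ift81 rose 1.36-fold (1.17 to 1.58, adjusted p = 0.0246, edgeR).

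Ift22 (ENSMUSG00000007987, chr5:136908150-136915404) encodes a small GTPase that joins the same pair. It stood at 29.4, 34.0, 27.6 and 33.2 CPM in mutants, against 19.0, 24.8, 20.2 and 22.7 CPM in controls. The groups did not overlap, with mutant 3 and control 2 nearest to each other. Ift22 rose 1.43-fold (1.22 to 1.69, adjusted p = 0.0177, edgeR). Ift88 (ENSMUSG00000040040, chr14:57424062-57517936), a core subunit whose loss in the mouse causes polycystic kidneys, stood at 25, 27.5, 24.0 and 26.8 CPM in mutants, against 20.6, 22.1, 21.6 and 20.3 CPM in controls. Both groups were tight and did not overlap. Ift88 rose 1.22-fold (1.09 to 1.37), and its adjusted p of 0.0486 (edgeR) was the nearest of the called genes to the threshold. Ift88 was not called with RLE scaling, without the filter, by limma-voom or with a replicate block, and was called in 5 of 20 alternatives.

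In the peripheral part of complex B, Traf3ip1 (ENSMUSG00000034292, chr1:91494647-91529307) encodes a microtubule-binding subunit and Ift57 (ENSMUSG00000032965, chr16:49699233-49765126) a subunit that helps link this part to the core. Traf3ip1 stood at 81.5, 83.7, 70.1 and 85.5 CPM in mutants, against 56.1, 68.9, 58.4 and 61.1 CPM in controls. The groups did not overlap, though mutant 3 and control 2 nearly met. Traf3ip1 rose 1.31-fold (1.14 to 1.51, adjusted p = 0.0283, edgeR). Ift57 stood at 21.6, 22, 20.3 and 25.3 CPM in mutants, against 16.1, 17.6, 16.3 and 17.4 CPM in controls. The groups did not overlap, and mutant 4 was the highest library. Ift57 rose 1.33-fold (1.15 to 1.52, adjusted p = 0.0259, edgeR). The authors' counting did not use strand, and 225 exon bases of Ift57 and 67 of Ift88 are shared with genes on the opposite strand.

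**Figure D2:**
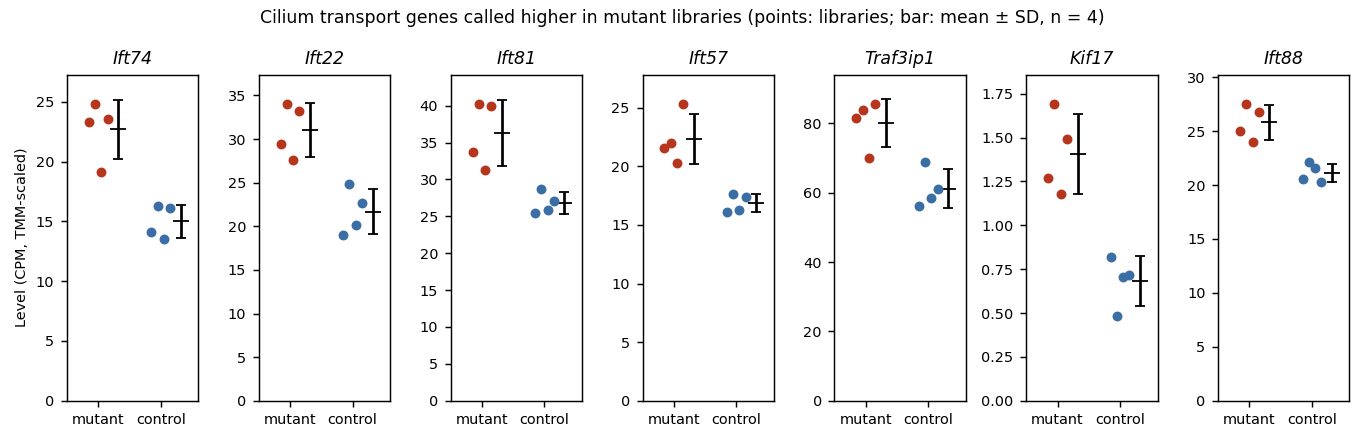
CPM of the 7 called genes in each library (points), mutant left and control right, with mean ± SD beside them (n = 4 each). In each panel the 4 mutant points lie above the 4 control points; Kif17 stands below 2 CPM throughout.

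The other 8 complex B genes were not called. Ttc26, a core subunit, had the largest fold change among them, 1.31-fold, with 14.6 ± 1.93 CPM in mutants and 11.2 ± 2.20 CPM in controls and an adjusted p of 0.15 (edgeR). Ift46 averaged 54.9 ± 7.39 CPM in mutants and 43.6 ± 8.30 CPM in controls. Ift80 was at 1.15-fold and Ift172, the largest subunit, at 1.1-fold. Ift20, which also serves at the Golgi, Ift52, Ift27 and Cluap1 were within 1.05-fold to 1.08-fold. Cluap1 shares 510 exon bases with Gm20695 on its own strand, so part of its reads could not be counted, and control 1 stood apart below the other controls. Control 4 stood apart above the other controls for Ift27.

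Among the motors, 1 of 4 kinesin-2 genes rose. Kif17 (ENSMUSG00000028758, chr4:138250435-138301967) encodes the accessory motor that works as a homodimer. It stood at 1.27, 1.69, 1.18 and 1.49 CPM in mutants, against 0.819, 0.482, 0.705 and 0.717 CPM in controls. The groups did not overlap, but the values rest on 7 to 33 counts per library. Kif17 rose 2.03-fold (1.41 to 2.93, adjusted p = 0.0293, edgeR). It was called in 11 of 20 alternatives and not with a replicate block, and 74 of its exon bases are shared with Sh2d5 on the same strand. The main motor is built from Kif3a, Kif3b and Kifap3. Kif3a averaged 30.2 ± 0.54 CPM in mutants and 26.1 ± 1.58 CPM in controls, without overlap and with an adjusted p of 0.099 (edgeR). Kif3b and Kifap3 were at 1.07-fold and 0.963-fold. Of the dynein-2 genes, Dync2li1 was at 1.21-fold and the heavy chain gene Dync2h1 at 1.1-fold, and neither was called.

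Complex A returns cargo to the cell body and lets membrane receptors enter the cilium. None of its 6 genes was called by edgeR. At an unadjusted p under 0.05 there was 1 higher, Ift140, and 1 lower, Ttc21b, where 13.4% and 11.8% of all tested genes were. DESeq2 called Ift140, and limma-voom none of them. Wdr19, Wdr35, Ift43 and Ift122 ran from 0.993-fold to 1.19-fold, and for Wdr35 control 1 stood apart below the other controls. Ift140 averaged 37.8 ± 1.95 CPM in mutants and 31.6 ± 2.48 CPM in controls, without overlap (1.2-fold, adjusted p = 0.076, edgeR). Ttc21b had the lowest fold change of the 39 genes. It stood at 14.6, 12.3, 12.3 and 16.5 CPM in mutants, against 14.5, 20.7, 19.7 and 16.1 CPM in controls. Controls 2 and 3 were high, controls 1 and 4 lay among the mutants, and the adjusted p was 0.173 (edgeR). Tulp3, the adaptor by which complex A carries receptors, averaged 42.9 ± 3.21 CPM in mutants and 34.9 ± 5.45 CPM in controls (adjusted p = 0.133, edgeR), with mutant 3 apart below the other mutants.

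The BBSome moves receptors out of the cilium, and a chaperonin of Mkks, Bbs10 and Bbs12 assembles it. None of the 7 BBSome genes was called by edgeR, and 4 of 7 were positive. At an unadjusted p under 0.05, 2 were higher, where 13.4% of all tested genes were. DESeq2 called Bbs5, and limma-voom none. Bbs5, a membrane-binding subunit, stood at 8.29, 9.54, 8.57 and 10.8 CPM in mutants, against 6.02, 6.68, 7.17 and 7.79 CPM in controls. The groups did not overlap, and the fold change of 1.35 had an adjusted p of 0.0839 (edgeR). Bbs2 and Bbs9 were at 0.879-fold and 0.899-fold, with overlapping groups. Bbs1, Bbs4, Ttc8 and Bbs7 ran from 0.997-fold to 1.24-fold, and for Bbs1 mutant 3 stood apart below the other mutants. The 3 chaperonin genes ran from 0.861-fold to 1.13-fold, and Mkks shares 944 exon bases, 29.3% of its length, with a gene on its own strand. Arl6, which recruits the BBSome to membranes, was at 1.19-fold, and Arl13b, a GTPase of the ciliary membrane, at 0.868-fold. Neither the chaperonin genes nor these GTPase genes had an unadjusted p under 0.05, and neither DESeq2 nor limma-voom called any. Mutant 3 stood apart above the other mutants for Bbs10.

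**Figure D3:**
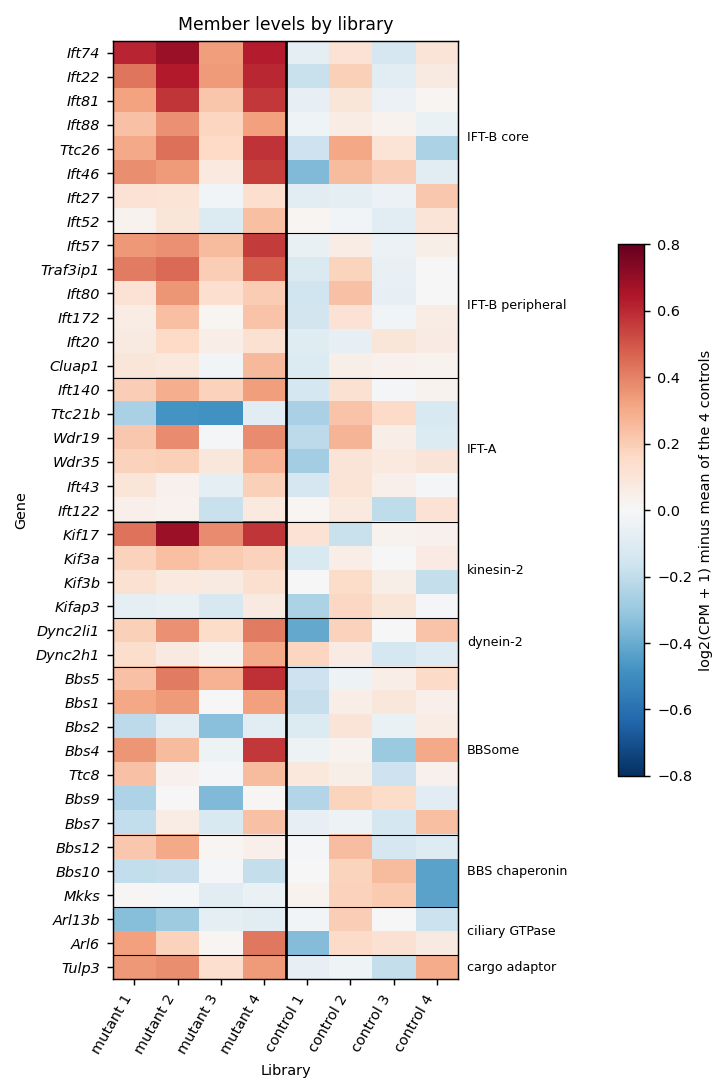
Each of the 39 genes (rows) in each library (columns, mutants left of controls), as log2(CPM + 1) minus the mean of the 4 controls, red above and blue below it. Mutant 3 is the lowest mutant in 13 of the 14 complex B rows, and Ttc21b is blue in all mutants.

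Some libraries were low or high for many genes at once. Mutant 3 was the lowest mutant for 33 of the 39 genes, and for 13 of the 14 complex B genes. The share of all tested genes for which mutant 3 was lowest was not counted. Its Foxj1, at 229 CPM, was also the lowest of the mutants, where the others had 256, 293 and 287 CPM. Control 1 was the lowest control for 23 genes and control 2 the highest for 23. Foxj1 did not follow this order, with 112, 97.3, 81.7 and 129 CPM in controls 1 to 4. Summed over the 39 genes, the mutants had 1120, 1170, 1030 and 1220 CPM, against 923, 1090, 1010 and 1020 CPM in the controls. These sums overlapped, mutant 3 lying below control 2. Without controls 1 and 4, which lay nearest the mutants on the first component, 9 genes were called higher and 4 lower, where 21.5% and 19.2% of all tested genes were. Without controls 2 and 3, 5 were called higher and 0 lower, where 3.56% and 1.26% of all tested genes were, and 3 of the 5 were among the 7.

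**Figure D4:**
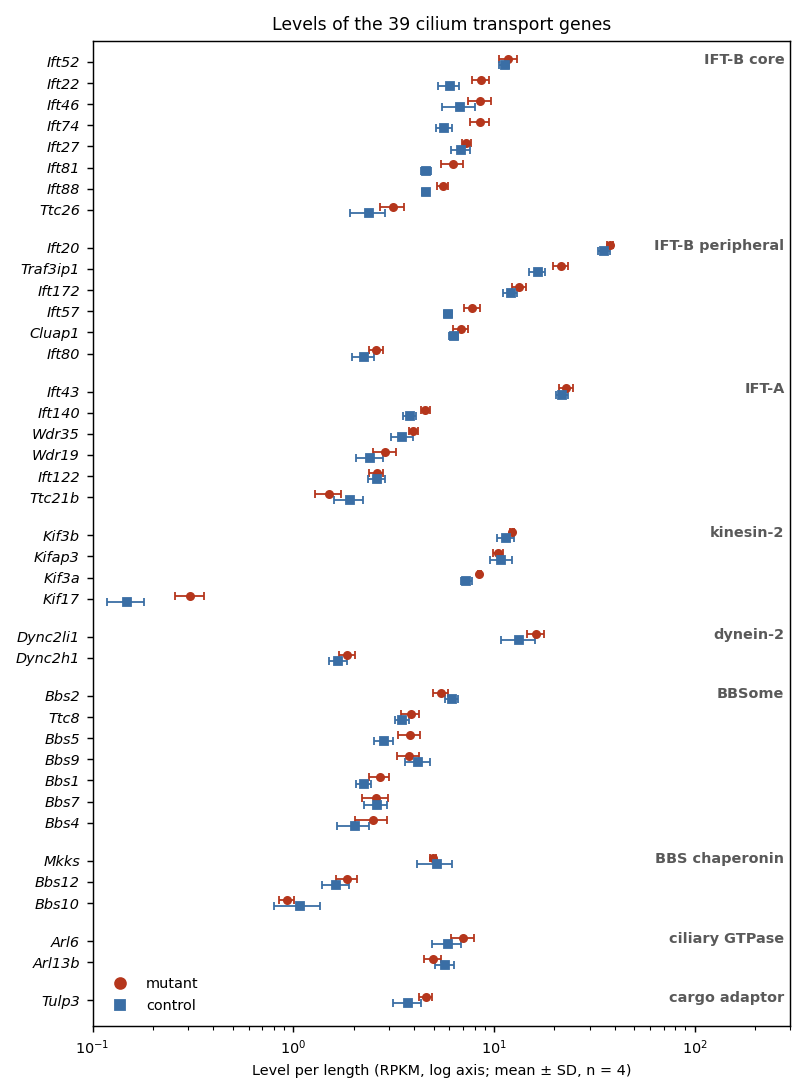
Level per length of each gene (RPKM, log axis) as mean ± SD over 4 libraries, mutant (red circles) above control (blue squares), grouped by role. Ift20 is the highest gene and Kif17 the lowest in both groups.

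Levels between genes were compared per kilobase of exon, as RPKM. Ift20 was the highest, at 38.0 RPKM in mutants and 35.4 RPKM in controls, and Kif17 the lowest, at 0.307 RPKM in mutants and 0.149 RPKM in controls. Ift43 of complex A was the next highest, at 22.9 ± 1.81 RPKM in mutants and 21.9 ± 1.58 RPKM in controls. Its values did not meet those of Ift20. Among the called genes Traf3ip1 was the highest, at 21.6 RPKM in mutants and 16.5 RPKM in controls.

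Other ciliary genes were counted in the same fit, as lists written for comparison. That fit called 5.45% of all tested genes higher and 2.36% lower. Of 23 further IFT, dynein-2 and BBS genes tested, 4 rose and 0 fell: Dynlrb2 (2.19-fold, adjusted p = 0.00137) and Tctex1d2 (1.71-fold, adjusted p = 0.00258), light chains of dynein-2, and its intermediate chains Wdr34 (1.38-fold) and Wdr60 (1.29-fold). Their median log2 fold change was 0.08. Of 22 genes of the transition zone, the gate at the base of the cilium, 3 rose, among them Nphp4 (2.21-fold) and Tmem107 (1.48-fold). Their median log2 fold change was 0.28, and 18 of the 22 were positive. Of 40 axonemal genes of motile cilia 15 rose, with a median of 0.53, among them Cfap53 (2.02-fold), Ccdc151 (2.31-fold), Lrrc23 (2.60-fold) and Cfap52 (1.99-fold). The other 25 were not called, and 38 of the 40 were positive and 2 negative. Tppp3, the highest of the 40 in CPM, averaged 395 ± 49.9 CPM in mutants and 414 ± 64.1 CPM in controls (0.954-fold). Of 20 genes of multiciliated cell fate and centriole amplification 12 rose, with a median of 0.86 (log2), among them Ccno (8.96-fold), Mcidas (11.3-fold), Deup1 (6.67-fold) and Cdc20b (10.4-fold). None of these lists had a member called lower. The transport genes' median of 0.19 lay below those of the transition zone, axonemal and fate genes and above the 0.08 of the further IFT, dynein-2 and BBS genes. These differences were not tested.

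The Hedgehog pathway signals through primary cilia. Of its 16 genes tested, 0 were called in either direction by edgeR, and DESeq2 and limma-voom each called 0. At an unadjusted p under 0.05 (edgeR), 0 were higher and 5 lower, where 13.4% and 11.8% of all tested genes were.

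**Figure D5:**
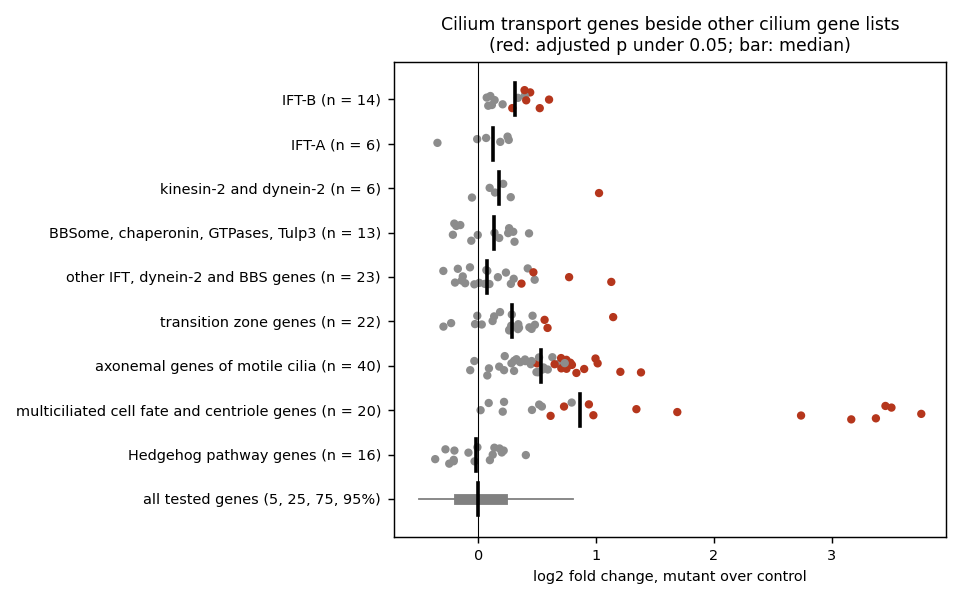
Log2 fold change, mutant over control, of each tested gene (points) in the transport genes split by complex and in 5 comparison lists, with the median as a black bar, red for an adjusted p under 0.05, and the 5, 25, 75 and 95% quantiles of all tested genes in the last row. The fate and centriole genes reach furthest right, and most transport genes lie near 0.

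Markers of other cell types also differed, in a fit that called 5.45% of all tested genes higher and 2.36% lower. Club cell markers summed to 8800 to 11000 CPM in mutants, against 25400 to 27900 CPM in controls. Of these 10 markers 5 fell, and 3 had a positive fold change. Endothelial markers summed to 3810 to 4250 CPM in mutants, against 4700 to 5900 CPM in controls, and 5 of 10 fell. Myeloid markers summed to 1470 to 1730 CPM in mutants, against 1030 to 1310 CPM in controls, and 4 of 10 rose. Another 4 of the myeloid markers had a negative fold change, and 0 fell. Alveolar type II markers summed to 31200 to 40000 CPM in mutants, against 28700 to 40500 CPM in controls, so that cells labelled as airway held much alveolar RNA. Alveolar type I markers summed to 7770 to 7880 CPM in mutants, against 7880 to 9990 CPM in controls. Of these 10 markers 1 fell, 9 had a negative fold change and 6 were lower at an unadjusted p under 0.05. Lymphoid markers summed to 83 to 113 CPM in mutants and 57 to 116 CPM in controls, and fibroblast and muscle markers to 3060 to 3730 CPM in mutants and 2420 to 3550 CPM in controls. Mitosis genes summed to 266 to 453 CPM in mutants, against 76.5 to 280 CPM in controls, and 6 of 12 rose. No marker was at 0 in every library, and the part of these cell types in the values of the transport genes was not tested.

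RFX transcription factors bind the X-box, an inverted repeat found at many ciliary genes, so the RefSeq promoters (GRCm38.p6, 250 bases before to 50 after the start) were searched for it. The motif was GTTNCC followed after 0 to 3 bases by GGNAAC, on both strands, with up to 2 mismatches over the 10 fixed letters. A promoter was found for 35 of the 39 genes, the others being Ift81, Dync2li1, Ift80 and Ift122. For a gene with several annotated starts, the best match over all its promoters was taken. A match was present in 20 of the 35 (57.1%) and in 37.7% of all 27025 genes with a promoter. With 0 mismatches it was present in 3 of 35 (8.57%) and in 0.936% of all genes, and with up to 1 mismatch in 8 (22.9%) and in 6.15%. The single-sided motif GTTGCC was present in 15 (42.9%) and in 14.1%. The inverted pair with up to 1 mismatch was present in 3 of the 6 called genes with a promoter and in 5 of the 29 others. Bbs1, Bbs4 and Ift52, not called, had 1 mismatch in a match not wholly before the start, and are not shown. The windows shown are the 3 perfect matches, in Ift57, Ttc26 and Bbs7, and the called genes with 1 mismatch, Ift22 and Kif17. They read 5′ to 3′ on the gene's strand, with the matched pair in capitals.
Ift57: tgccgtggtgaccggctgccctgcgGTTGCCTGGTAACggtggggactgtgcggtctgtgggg
Ttc26: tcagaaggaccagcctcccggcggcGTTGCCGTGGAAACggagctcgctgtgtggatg
Bbs7: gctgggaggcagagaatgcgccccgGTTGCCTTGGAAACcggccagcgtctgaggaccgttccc
Ift22: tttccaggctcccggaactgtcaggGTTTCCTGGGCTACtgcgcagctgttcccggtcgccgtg
Kif17: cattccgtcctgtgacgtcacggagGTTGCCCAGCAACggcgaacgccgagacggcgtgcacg
These windows lie at chr16:49699209-49699271 (+), chr6:38381466-38381523 (+), chr3:36613472-36613535 (-), chr5:136908062-136908125 (+) and chr4:138262153-138262215 (+). The Kif17 window lies inside the span of the counted gene, before a later annotated start, and not upstream of the whole gene. Of the perfect matches, Ift57 rose 1.33-fold, Ttc26 was at 1.31-fold and not called, and Bbs7 was at 0.997-fold. At up to 2 mismatches the motif was present in 6 of the 6 called genes with a promoter and in 14 of the 29 others. A match is a description of letters and does not show binding.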

How the data were processed

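The values are raw counts, deposited as 1 table of genes by 8 libraries. Read pairs were counted with featureCounts 1.6.2 by the authors, per the file headers, on the GENCODE release M25 annotation, without strand, and left out reads over several genes or places. The labels name a stranded and a TruSeq V2 kit, and STAR, Bowtie2 and Cufflinks appear, with no role given, in the submitters' processing notes. Exon length per gene is in the deposited table and gave RPKM. All 8 columns were used. Symbols came from GENCODE release M21 and matched 99.53% of identifiers.

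The 39 genes and the comparison lists were chosen with earlier results of these data known. Low genes were removed by filterByExpr (at least 10 counts, total of at least 15), the rest scaled by TMM, and the 4 mutant libraries were compared with the 4 controls by edgeR 4.0.16 (R 4.3.3, robust quasi-likelihood fit, group as the only term), with Benjamini-Hochberg adjustment over all 16964 genes and a threshold of 0.05. The fit was tested on simulated data with the same relative spread for every gene and no pairs among the controls. That test therefore does not show how the fit performs on these libraries. A count of 3 corresponds to 0.138 to 0.199 CPM before TMM scaling, counting error only. No pair of libraries of the same group agreed within sampling noise, and pairs of a mutant with a control were not checked. Called genes were named with full values. Of the others, the 3 with the largest change, the highest and lowest per length, and those with a library apart from its group were named, as were up to 4 called genes per list. A gene that this rule names is not reported here. Ift140, Kif3a, Kif3b, Kifap3, Bbs2, Bbs9, Ift43, Ift46, the dynein-2 pair, the GTPases and Tppp3 were also named, chosen after their values were seen. Alternatives were other scaling, filters, DESeq2 1.42.0, limma-voom (limma 3.58.1), a replicate block, a GC trend and libraries left out.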

Additional observations from a re-analysis of the deposited data

Results flagged for a closer look

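A gap between 1 library and the rest of its group, set against the group's range, was tested in 78 groups of 4 libraries, and 6 stood out. Chance flags about 1 in 20 groups. Mutant 3 stood apart for 3 genes, low for Bbs1 (17.1 CPM, the nearest mutant at 21.6) and Tulp3 (38.1 CPM, nearest 44.2) and high for Bbs10 (3.19 CPM, nearest 2.73). Control 1 was low for Cluap1 (13.2 CPM, the nearest control at 14.7) and Wdr35 (20.6 CPM, nearest 26.7). Control 4 was high for Ift27 (22.9 CPM, nearest 18.9). None of the 6 concerns a called gene.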

How the results depend on the processing

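Over 20 alternatives the 7 called genes kept a positive fold change, and the median log2 fold change of the 39 genes stayed between 0.12 and 0.25. Ift74 was called in 20 of 20, Ift22 in 17, Ift81 and Traf3ip1 in 15 each, Ift57 in 13, Kif17 in 11 and Ift88 in 5. DESeq2 called 9 higher and limma-voom 6. Library size scaling called 9 (6.5% of all tested genes), RLE scaling 6 (5.19%) and no filter 6 (3.23%). Leaving out 1 library gave 1 to 7 called higher (3% to 8.86% of all tested genes), and leaving out control 1 with mutant 4, whose description numbers stand apart from the rest, gave 1 higher (Ift74) and 1 lower (Ttc21b), against 6.05% and 3.69% of all tested genes. Without controls 1 and 4, 4 were called lower (Ttc21b, Bbs9, Mkks and Arl13b). Over all tested genes that fit called 3338 lower, and the fit without controls 2 and 3, with as many libraries, called 223. The cause was not tested. The replicate block gave 5 called higher, without Ift88 and Kif17, and 865 and 371 over all genes, against 924 and 401 without it. Same-numbered libraries had correlations of deviations of 0.007, 0.129, -0.123 and 0.134, and not every library correlated best with its own number, so the numbers were not taken as pairs. The share of promoters with the X-box was 8.57% with 0 mismatches, 22.9% with up to 1 and 97.1% with up to 3, where 93.9% of all genes with a promoter matched, by construction of a looser motif. Over the same alternatives the genes called higher numbered 1 to 6 in complex B (main 6), 2 to 5 in the further IFT, dynein-2 and BBS genes (main 4), 3 to 9 in the transition zone (main 3), 9 to 28 in axonemal genes (main 15), 11 to 16 in fate and centriole genes (main 12) and 4 to 12 in mitosis genes (main 6). Those called lower numbered 0 to 4 in the further IFT, dynein-2 and BBS genes and 0 to 2 in the transition zone (main 0 each), 0 to 9 in endothelial markers (main 5), 0 to 7 in alveolar type I markers (main 1) and 5 to 6 in club cell markers (main 5). Hedgehog genes reached 3 higher and 5 lower (main 0 each). These counts, the 9 transition zone genes and the 28 axonemal genes came from the fit without controls 1 and 4. In that fit 21.5% of all tested genes were called higher and 19.2% lower. All tested genes called numbered 515 to 3750 higher and 146 to 3338 lower. Kif17 is limited by its depth of 7 to 33 counts.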
